A study of Rattus norvegicus with 10 samples.

Results

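Desert hedgehog is the hedgehog ligand that Sertoli cells secrete in the testis. This section follows 8 genes of its pathway, chosen by name: the ligand Dhh, its receptor Ptch1, the signal transducer Smo, the transcription factors Gli1, Gli2 and Gli3, and the inhibitors Hhip and Sufu. The array held 9 probes for 7 of the 8 genes, out of 30367 probes in all, and all 9 were among the 21892 probes bright enough to test. Dhh and Gli2 had a pair of probes each and the others 1. No probe of the array matched Hhip in the gene table used, so Hhip was not analysed here.

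Testis RNA of 6-day-old male rats was hybridised to 10 one-colour arrays, 1 for each of 10 sire codes. All pups had Brown Norway fathers and Sprague Dawley mothers. Fathers received saline (5 sires) or BEP (5 sires) for 9 weeks and then had 9 weeks of recovery, and BEP is usually short for bleomycin, etoposide and cisplatin, although the labels do not spell it out. Each sire code has a letter, C on 5 arrays and T on the other 5; C is taken here for saline and T for BEP, which no label states. The pups themselves were not dosed as far as the labels say, and the series text puts the number 2 beside the testes without saying whether 2 testes were pooled on each array. The sources used here do not give how many litters a sire code stands for, so p-values measure the spread between these arrays.

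The arrays lay on 2 slides, with 3 C and 2 T arrays (C replicates 1 to 3, T replicates 1 and 2) on slide 1 and the other 2 C and 3 T arrays on slide 2. The 75th percentile of the signal of an array, which served as its scale, ran from 1525 to 2686 scanner units. Levels below are log2 values relative to that percentile, so 0 is a signal equal to the 75th percentile of the array and each unit is a doubling. Probes differ in how brightly they bind, so a level can be compared between arrays but not between genes. Markers of the labelled tissue were present: 16 of 17 Sertoli cell markers, 11 of 12 Leydig cell markers and 11 of 12 germ cell markers were well above background on all 10 arrays. Of the markers of other sources, 8 of 10 for Schwann cells and nerve, which are a known source of Dhh outside the testis tubules, and 7 of 9 for duct epithelium were also well above background on all 10.

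In the testis the Sertoli cells lie inside the seminiferous cords and the cells that receive Dhh lie outside them, as peritubular myoid cells and precursors of Leydig cells. Ptch1 on the receiving cell holds Smo inactive; when Dhh binds Ptch1, Smo is released, and Gli2 and Gli3 are no longer processed into or held as repressors. Gli1, Ptch1 and Hhip are themselves switched on by the pathway, which is why their RNA is commonly read as a measure of its output, while Sufu holds Gli proteins in the cytoplasm. Loss of Dhh is known for its effects on Leydig cells, peritubular cells and fertility.

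The sequence just upstream of the start of Ptch1 and of Dhh is shown because one gene is a target that the pathway reads out through Gli proteins and the other is the ligand. Both runs are 250 bases ending just before the annotated start, on the strand of the gene, from RefSeq's GRCr8 assembly. Ptch1 lies on the plus strand at chr17:1555321-1555570, and Dhh on the minus strand at chr7:131935353-131935602. In the Ptch1 run the capitals mark a match to the consensus of Gli proteins, and in the Dhh run they mark GC boxes, the motif of Sp-family factors.
Ptch1: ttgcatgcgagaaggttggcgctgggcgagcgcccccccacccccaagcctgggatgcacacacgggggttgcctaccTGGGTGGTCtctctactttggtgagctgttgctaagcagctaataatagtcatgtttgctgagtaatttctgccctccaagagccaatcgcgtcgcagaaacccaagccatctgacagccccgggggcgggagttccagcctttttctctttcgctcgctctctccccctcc
Dhh: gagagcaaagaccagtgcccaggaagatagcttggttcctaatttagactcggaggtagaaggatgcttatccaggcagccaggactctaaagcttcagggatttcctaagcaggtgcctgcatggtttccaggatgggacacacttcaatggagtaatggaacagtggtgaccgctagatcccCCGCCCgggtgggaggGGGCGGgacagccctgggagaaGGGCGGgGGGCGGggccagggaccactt
The Gli consensus searched was GACCACCCA, which reads TGGGTGGTC on the other strand, and the match in Ptch1 is in the latter form, with its first base 172 bases before the start. Of 33469 upstream regions of the same length, 113 (0.338%) held the consensus on either strand. The promoter table held 7 of the 8 members, with Hhip and without Gli1, so Gli1 was not searched. Of these 7, Ptch1 was the 1 with a match. The GC box (GGGCGG, or CCGCCC on the other strand) occurred 4 times in Dhh, with first bases 66, 50, 28 and 21 bases before the start. It was found in 10197 (30.5%) of the regions and in 3 of the 7 members, Dhh, Ptch1 and Gli2. The GC box of Ptch1, with its first base 48 bases before the start, is left in lower case above. Matches are given as letters found in these windows, and binding was not measured.

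The comparison of sire groups asks whether a father's treatment went with a different level of the pathway in the pup testis. No member passed the test. Of the 9 member probes, 0 had a Benjamini-Hochberg adjusted p under 0.05 with limma (adjusted p = 0.9985 for each, adjusted over all tested probes). The share was the same over all 21892 tested probes (0.0%). The unadjusted limma p was under 0.05 for 0 of the 9 probes and for 869 probes, or 3.97%, overall. The values on the C and T arrays overlapped for all 9 probes. C and T were fully apart on 0.722% of the 21870 tested probes with a value on all arrays.

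**Figure D1:**
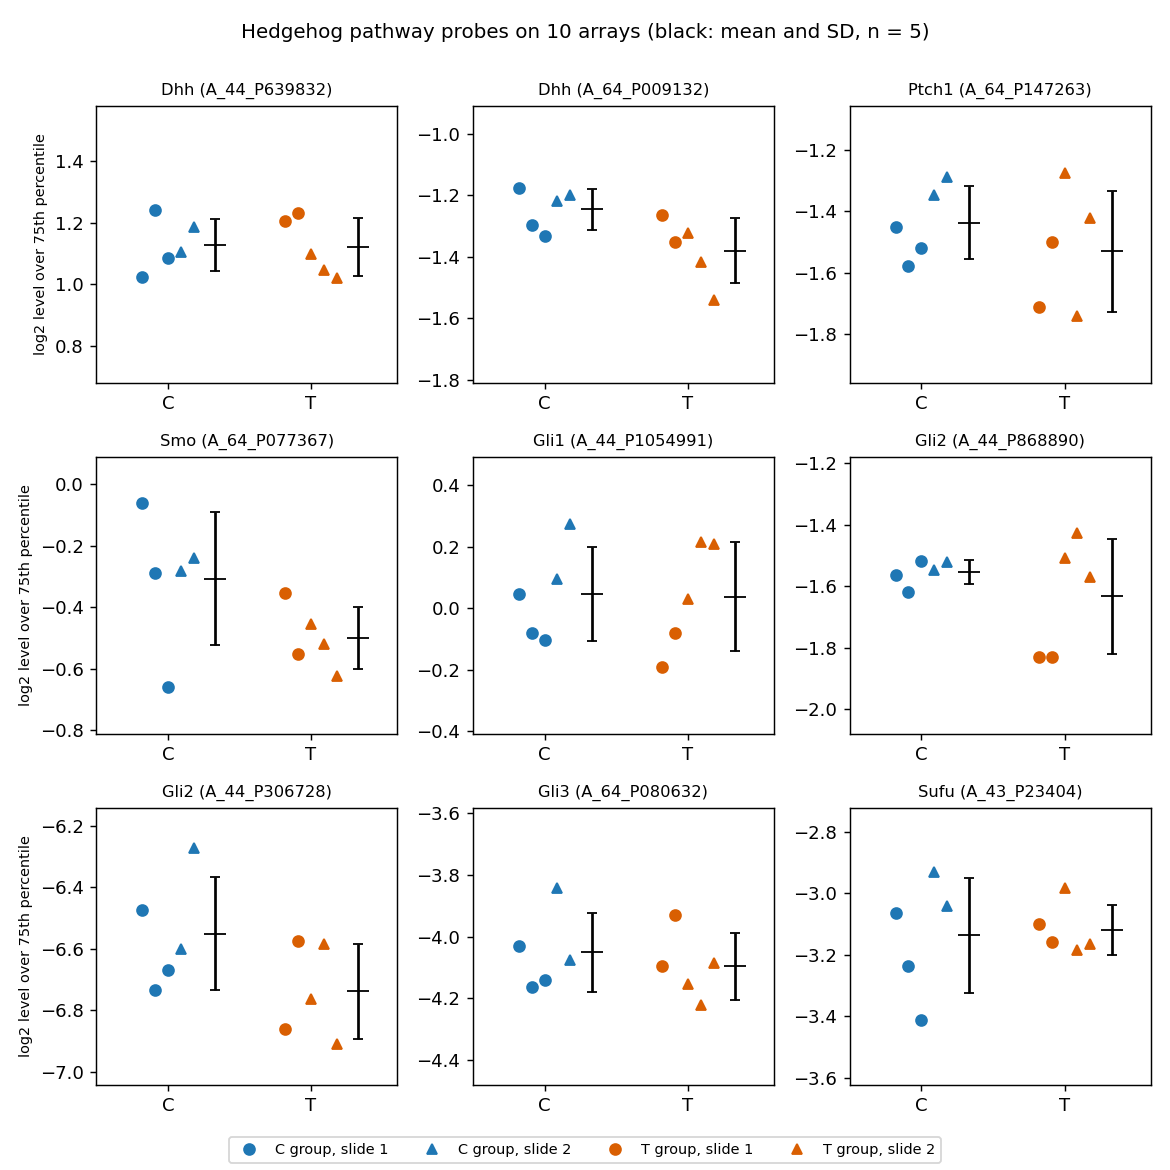
Log2 level over the array's 75th percentile (vertical axis; all panels span the same number of log2 units) of the 9 member probes on 5 C and 5 T arrays, with circles for slide 1 and triangles for slide 2, and the mean and SD of each group in black. The C and T points overlap in all 9 panels, and on the Gli1 panel the triangles lie above the circles within each group.

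Dhh, the ligand, varied least: its probes had the smallest SD within groups of the 9 (0.091 and 0.089). Its brighter probe, A_44_P639832 (transcript NM_053367), gave 1.02, 1.24, 1.09, 1.10 and 1.19 on C replicates 1 to 5, in that order here and below, and 1.21, 1.23, 1.10, 1.05 and 1.02 on T replicates 1 to 5. Both groups started at 1.02 and ended at 1.24 (C) or 1.23 (T), so they covered nearly the same values. The means were 1.13 ± 0.086 (SD, n = 5) in C and 1.12 ± 0.095 (n = 5) in T, a difference of -0.0068 ± 0.067 (SE) with a 95% interval from -0.16 to 0.14.

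The dimmer Dhh probe, A_64_P009132, gave -1.18, -1.30, -1.33, -1.22 and -1.20 on the C arrays and -1.26, -1.35, -1.32, -1.42 and -1.54 on the T arrays. On this probe 3 of the 5 T arrays lay below every C array. The difference was -0.13 ± 0.066 (SE, 95% interval -0.28 to 0.012; unadjusted limma p = 0.0679, and two-sided exact permutation p = 0.0476 over the 252 splits into 5 and 5, neither adjusted over probes), and it was -0.040 within slide 1 and -0.22 within slide 2. The brighter probe gave 0.10 within slide 1 and -0.090 within slide 2. Both probes are assigned to the same transcript, and over the 10 arrays their levels correlated at r = 0.304 (permutation p = 0.399, adjusted p = 0.433 over the 2 genes with a pair of probes; Spearman rho = 0.236, permutation p = 0.512). Without the 2 arrays farthest from the median of the brighter probe r was 0.480.

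Ptch1, the receptor and also a target of the pathway, was measured by A_64_P147263 (NM_053566). The C arrays gave -1.45, -1.58, -1.52, -1.35 and -1.29, and the T arrays -1.71, -1.50, -1.27, -1.74 and -1.42. The highest array and the 2 lowest were all T arrays, so T enclosed C. The difference was -0.092 ± 0.10 (SE, 95% interval -0.31 to 0.13), from means of -1.44 ± 0.12 (SD, n = 5) and -1.53 ± 0.20 (n = 5). Within slide 1 it was -0.089 and within slide 2 -0.16.

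Smo, the transducer that Ptch1 restrains, had the largest difference among the genes when each is represented by its brightest probe. A_64_P077367 (NM_012807) gave -0.062, -0.29, -0.66, -0.28 and -0.24 on the C arrays and -0.35, -0.55, -0.45, -0.52 and -0.62 on the T arrays. All T arrays were lower than 4 of the 5 C arrays, but C replicate 3 was the lowest of all 10. The difference was -0.19 ± 0.10 (SE, 95% interval -0.42 to 0.036; exact permutation p = 0.111), with -0.12 within slide 1 and -0.27 within slide 2. The Smo level also correlated with the brightness of the array, at r = -0.696 with the log2 75th percentile (permutation p = 0.0239, adjusted p = 0.215 over 9 probes; rho = -0.552, permutation p = 0.105). Without the 2 arrays farthest from the median brightness that r was -0.236, so the relation rests on those arrays, and its part in the Smo values was not tested.

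Gli1, whose RNA is the usual readout of active signalling, did not separate the groups. A_44_P1054991 (NM_001191910) gave 0.046, -0.080, -0.10, 0.095 and 0.27 on the C arrays and -0.19, -0.079, 0.029, 0.21 and 0.21 on the T arrays. The lowest array was a T array and the highest a C array. The difference was -0.0098 ± 0.10 (SE, 95% interval -0.23 to 0.21), from means of 0.047 ± 0.15 (SD, n = 5) and 0.037 ± 0.18 (n = 5). Within slide 1 it was -0.089, within slide 2 -0.033, and with the slide as a block -0.061 ± 0.067 (SE).

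Gli2, the main activator of the response, was measured by A_44_P868890 and A_44_P306728 (both NM_001107169). The brighter, A_44_P868890, gave -1.56, -1.62, -1.52, -1.55 and -1.52 on the C arrays and -1.83, -1.83, -1.51, -1.43 and -1.57 on the T arrays. T replicates 1 and 2, the T arrays of slide 1, were the lowest of all, whereas the C arrays lay close together (SD 0.040 in C and 0.19 in T, n = 5 each). The difference was -0.079 ± 0.087 (SE, 95% interval -0.27 to 0.11), and it was -0.26 within slide 1 and 0.034 within slide 2, so its direction was not the same on both slides.

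On the dimmer Gli2 probe, A_44_P306728, only 6 arrays were well above background, 5 C and 1 T. Its measured levels were -6.48, -6.74, -6.67, -6.60 and -6.27 in C and -6.86, -6.58, -6.76, -6.58 and -6.91 in T, with a difference of -0.19 ± 0.10 (SE). Here 3 T arrays lay below every C array, but the signals were 16.5 to 34.5 units. The disagreement of the 2 spots, given as an error of their mean, was 0.32, against an SD between arrays within groups of 0.17. A constant offset between the spots counts in that error, although it would cancel in T minus C. With normexp background correction the T minus C difference of this probe was -0.047.

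Gli3, known mainly as a repressor in the absence of ligand, gave -4.03, -4.16, -4.14, -3.84 and -4.08 on the C arrays and -4.10, -3.93, -4.15, -4.22 and -4.09 on the T arrays with A_64_P080632 (NM_080405). The T values lay within or just below the range of C. The difference was -0.046 ± 0.079 (SE, 95% interval -0.22 to 0.13), with 0.10 within slide 1 and -0.19 within slide 2.

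Sufu, the cytoplasmic inhibitor, gave -3.06, -3.24, -3.41, -2.93 and -3.04 on the C arrays and -3.10, -3.16, -2.98, -3.18 and -3.17 on the T arrays with A_43_P23404 (NM_001024899). All T arrays lay inside the range of C. The difference was 0.019 ± 0.092 (SE, 95% interval -0.18 to 0.22), with 0.11 within slide 1 and -0.12 within slide 2.

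**Figure D2:**
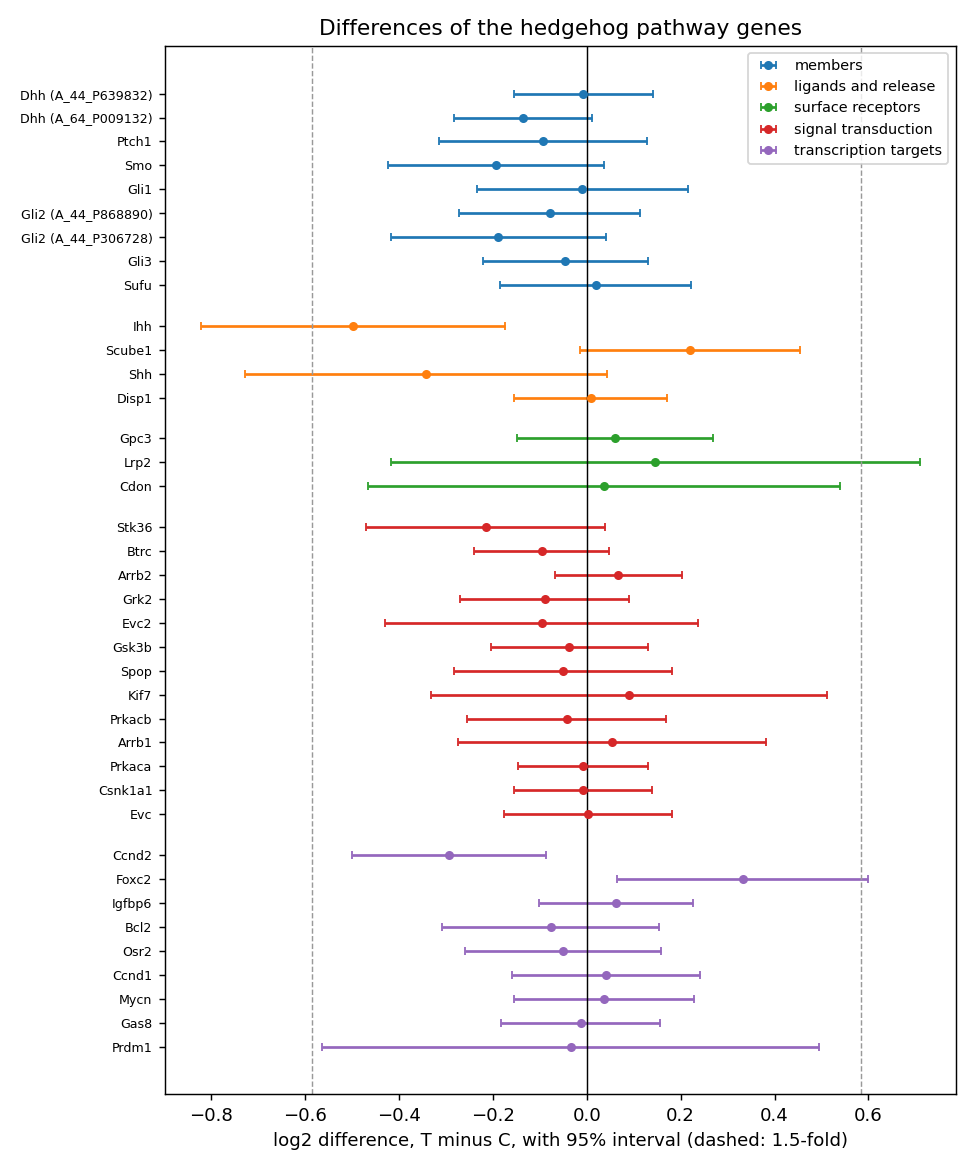
Log2 difference T minus C with its 95% interval (horizontal axis) for the 9 member probes and the 29 other tested genes of the hedgehog pathway, coloured by list, with dashed lines at 1.5-fold either way. All member intervals include 0, and those of the 8 member probes well above background on all arrays lie between the dashed lines; the interval of the Gli2 probe A_44_P306728, above background on 1 T array, is drawn but bounds nothing. Of the rest, 3 other genes, Ihh, Ccnd2 and Foxc2, have intervals that exclude 0 before adjustment.

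With each gene represented by its brightest probe, 1 member was higher in T and 6 were lower, with a median difference of -0.046. Over all 11561 tested genes 53.9% were lower, with a median of -0.0089, and over all tested probes 58.5% were lower. The member count was not stable to the scaling: Dhh (A_44_P639832) and Gli1 changed sign with quantile normalization and in the authors' processed values, and Gli1 and Gli3 with normexp background correction, so that 3 members were then higher. All of these reversals were of differences smaller than their SE. The 8 member probes that were well above background on all 10 arrays had intervals that excluded a change of 1.5-fold or more in either direction, as did 90.3% of all probes with that detection. No bound is drawn from the dimmer Gli2 probe, which was above background on 1 T array.

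The members spread about as much as other probes. Within groups the median SD of the member probes was 0.145, against 0.162 over all tested probes, whose quartiles were 0.110 and 0.251. The error of the mean of the 2 spots was 0.027 for the brighter Dhh probe, against an SD between arrays of 0.091, and 0.024 for Gli1, against 0.165. For 8 of the 9 probes the spot error was smaller than the spread between arrays. The spot error was taken from the squared differences between spots, so a constant offset between them is included.

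**Figure D3:**
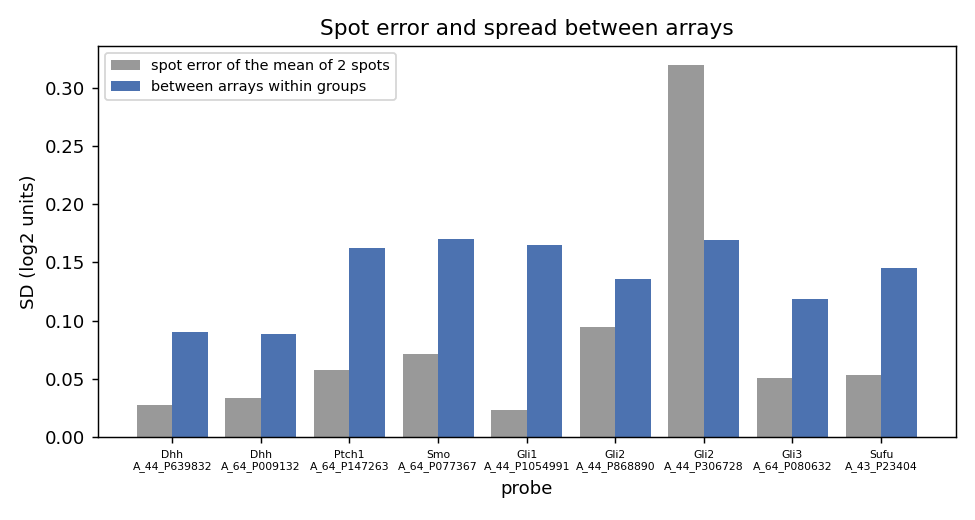
Error of the mean of 2 spots (grey) and SD between arrays within the groups (blue), in log2 units, for the 9 member probes. A constant offset between the 2 spots counts in the grey bar. The grey bar is the shorter for 8 probes, and the dim Gli2 probe A_44_P306728 is the exception, with 0.32 against 0.17.

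Gli1 differed between the slides, with every slide 2 array above every slide 1 array of the same sire group. In a fit with the slide and the sire group as terms, chosen after the values had been seen, Gli1 was 0.26 ± 0.067 (SE) higher on slide 2 than on slide 1 (95% interval 0.11 to 0.41, limma adjusted p = 0.0393 over all tested probes), a fold of 1.20. The slide means were -0.081 ± 0.084 (SD, n = 5) and 0.16 ± 0.10 (n = 5), with ranges of -0.19 to 0.046 and 0.029 to 0.27. Slide differences were common: 9.79% of all tested probes passed the same threshold and 24.1% had an unadjusted limma p under 0.05. The brighter Gli2 probe was 0.18 ± 0.070 higher on slide 2 (adjusted p = 0.147), and the remaining 7 member probes had adjusted p of 0.317 or more. The adjusted p for Gli1 was above 0.05 without any 1 of 7 of the 10 arrays (C replicates 2, 3 and 5 and T replicates 1, 2, 4 and 5), at most 0.144 without C replicate 5, while the difference stayed between 0.23 and 0.30. All 3 arrays whose sire code ends in 2 lay on slide 2, so slide and sire code cannot be fully told apart.

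Since Ptch1 and Gli1 are read as outputs of Dhh signalling, their levels were set against Dhh over the 10 arrays. Neither relation passed a test. Dhh and Ptch1 correlated at r = -0.133 (permutation p = 0.705; rho = -0.152, permutation p = 0.682), and Dhh and Gli1 at r = -0.490 (permutation p = 0.150; rho = -0.442, permutation p = 0.206). With the mean of each slide removed the values were 0.0645 and -0.291, and without the 2 arrays farthest from the median of Dhh they were -0.0055 and -0.313. With the dimmer Dhh probe r was 0.246 for Ptch1 and -0.195 for Gli1, so the sign for Ptch1 depends on the probe. The relation with the smallest p for the dimmer probe was that with Smo: r = 0.824 (permutation p = 0.00297, adjusted p = 0.0624 over 21 pairs) and rho = 0.903 (permutation p = 6.4e-04, adjusted 0.0134), against r = 0.116 for Smo with the brighter probe. It therefore passed the threshold by rank and not by Pearson's r. The dimmer probe was tried after the data had been seen. The adjustment covers only the 21 pairs computed with it, not the choice of probe. The r with the dimmer probe was 0.829 with slide means removed (permutation within slides, adjusted p = 0.0102) and 0.899 with normexp background correction (permutation test, adjusted p = 0.00987). It was 0.780 without the 2 farthest arrays, 0.721 with quantile normalization, 0.772 in the authors' values and 0.722 after array brightness was taken out (permutation test, adjusted p = 0.397). The adjusted p was above 0.05 in the latter 4. Both probes correlated negatively with array brightness, without passing the adjusted threshold (r = -0.573 for the dimmer Dhh probe and -0.696 for Smo), and the part of brightness in the relation was not tested beyond that removal. A slide held 5 arrays, too few for a correlation of its own.

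With each gene represented by its brightest probe, 0 of the 21 pairs of the 7 genes had an adjusted p under 0.05 (the lowest was 0.378) and 2 had an unadjusted permutation p under 0.05. Gli1 and Gli2 correlated at r = 0.670 (permutation p = 0.0337, adjusted p = 0.378; rho = 0.455, permutation p = 0.193), and r was 0.359 with slide means removed and 0.527 without the 2 farthest arrays. Dhh and Gli2 correlated at r = -0.659 (permutation p = 0.0360, adjusted p = 0.378; rho = -0.503, permutation p = 0.145), and r was -0.564 with slide means removed, -0.560 without the 2 farthest arrays and -0.0864 with the dimmer Dhh probe. Smo and Sufu gave r = 0.567 (permutation p = 0.0856, adjusted p = 0.523; rho = 0.612), 0.730 with slide means removed and 0.309 after array brightness was taken out. With normexp background correction 2 pairs passed the threshold, Dhh and Gli2 at r = -0.822 (permutation test, adjusted p = 0.00966) and Gli3 and Sufu at r = 0.813 (adjusted p = 0.0359). Dhh and Gli2 gave -0.388 with quantile normalization, -0.454 in the authors' values and -0.733 after array brightness was taken out. Without normexp, Gli3 and Sufu gave r = 0.492 (permutation test, adjusted p = 0.523). Their r was 0.579 with slide means removed and 0.302 after array brightness was taken out. By rank the lowest p was that of Ptch1 and Sufu (rho = 0.721, permutation p = 0.0241, adjusted 0.506). The 21 values ran from -0.659 to 0.670 with a median of 0.130, and 15 were above 0.

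**Figure D4:**
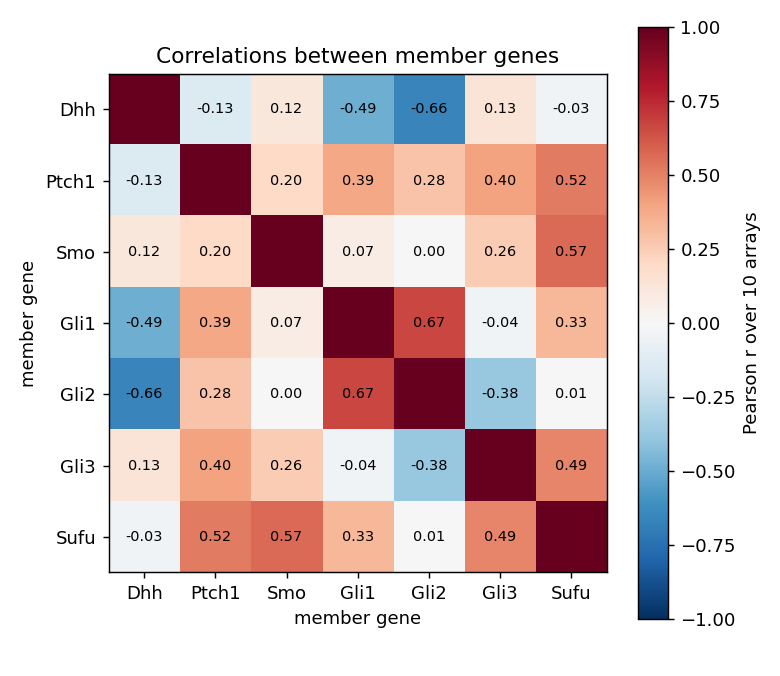
Pearson r over 10 arrays for each pair of the 7 measured member genes, each represented by its brightest probe, from -1 (blue) to 1 (red). The row of Dhh is negative with Gli1 (-0.49) and Gli2 (-0.66), Gli1 and Gli2 give the highest value (0.67), and 0 of the 21 pairs passed the adjusted threshold.

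Dhh comes from Sertoli cells, so its level was also set against the mean deviation of 16 Sertoli markers on each array, called the Sertoli score here. In bulk tissue, fewer cells of a type and less RNA per cell cannot be told apart. The score ran from -0.00019 to 0.11 on the C arrays and from -0.16 to 0.042 on the T arrays, where T replicates 4 and 5, both on slide 2, were lowest. The brighter Dhh probe rose with the score at r = 0.694 (permutation p = 0.0224, adjusted p = 0.421 over 27 relations of members with scores; rho = 0.758, permutation p = 0.0153, adjusted 0.412). The value was 0.615 with slide means removed and 0.565 without the 2 arrays farthest from the median score. The dimmer Dhh probe gave r = 0.656 (permutation p = 0.0407, adjusted p = 0.421) but rho = 0.333 (permutation p = 0.349), and without the 2 farthest arrays r was -0.109, so on that probe the relation rests on 2 arrays. All 16 markers were well above background on every array, and Sox9 had no matched probe; 5 were higher and 11 lower in T (9 higher within slide 1 and 2 within slide 2). The part of the score in the Dhh values was not tested. None of the 27 relations passed the adjusted threshold.

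**Figure D5:**
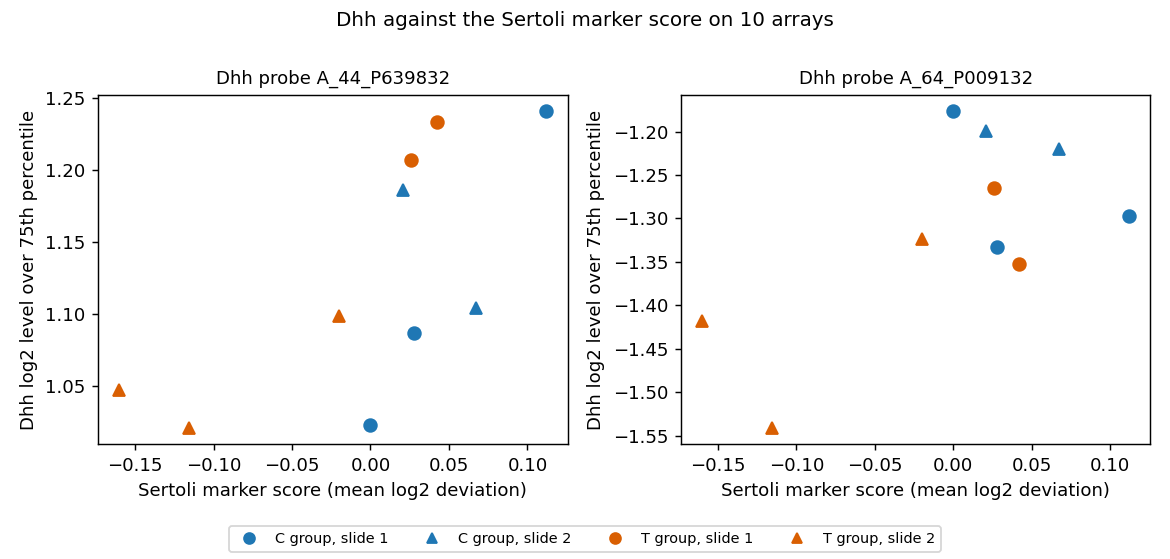
Log2 level of each Dhh probe (vertical axis) against the Sertoli score, the mean log2 deviation of 16 Sertoli markers (horizontal axis), on 10 arrays. On the left (A_44_P639832) the points rise over the whole range (r = 0.694), and on the right (A_64_P009132) the rise comes from the 2 T arrays with the lowest scores (r = 0.656, and -0.109 without them).

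The receiving side was set against markers of Leydig cells and interstitial mesenchyme. Its relation with the peritubular myoid markers was not computed. Ptch1 correlated with the mean deviation of 11 Leydig markers at r = 0.588 (permutation p = 0.0780, adjusted p = 0.421; rho = 0.697, permutation p = 0.0308, adjusted 0.416), at 0.636 with slide means removed and 0.533 without the 2 farthest arrays. Against 9 markers of interstitial mesenchyme Ptch1 gave r = 0.192 (permutation p = 0.598). Gli1 gave r = 0.189 with the Leydig score and 0.161 with the mesenchyme score (permutation p = 0.591 and 0.656). All 9 mesenchyme markers were higher in T, by 0.030 to 0.13, with 0 unadjusted p under 0.05 (9 of 9 also with normexp, quantile normalization and the authors' values, and 8 within each slide); 46.1% of all tested genes were higher in T. Of the other marker lists, 8 of 11 germ cell markers were higher, 4 of the 11 with an unadjusted limma p under 0.05. For endothelium 6 of 7 were higher, 2 of the 7 with such a p, and for skeletal muscle 5 of 6, 1 of the 6. Duct epithelium had 8 of 9 higher, erythroid cells 3 of 3, macrophages 4 of 6, Schwann cells and nerve 4 of 8 and fat 0 of 2, with 0 such p. Of the 16 Sertoli and 11 Leydig markers 2 and 1 had such a p, against 4.01% of all tested genes. In these lists 0 markers passed after adjustment. Of the 8 peritubular myoid markers 2 were higher and 6 lower, and 0 had an unadjusted p under 0.05.

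The genes whose pattern over the 10 arrays was most like that of each member came from a search of 10963 named genes, and the highest of so many correlations is large by selection. For Dhh these were Adck2 (r = 0.977), Med27 (0.936) and Ccdc181 (0.916). For Ptch1 they were Pkp2 (0.894), Nedd9 (0.886) and Dpf2 (0.886), and for Smo Ncln (0.955), Cdc42ep5 (0.942) and Ino80b (0.937). For Gli1 they were Rexo5 (0.968), Thpol1 (0.955) and Snx14 (0.938), for Gli2 Sgms1 (0.930), Wdr5b (0.888) and Pnrc1 (0.887), for Gli3 Slc22a23 (0.907), Vamp8 (0.894) and Stau2 (0.878), and for Sufu Tspan17 (0.964), Tysnd1 (0.959) and Rspo1 (0.934). No member was among the 3 nearest of another. The closest pair was Gli1 seen from Gli2, in place 268 of the list, while Ptch1 was in place 7097 seen from Dhh.

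The rest of the pathway was taken from lists of 42 further genes, of which 31 had a probe and 29 were tested. None passed the adjusted threshold. Of the 29, 13 were higher and 16 lower in T, with a median difference of -0.0079, and 3 had an unadjusted p under 0.05, against 4.01% of all genes. Among genes for the other ligands and their release 2 were higher and 2 lower, among surface receptors 3 and 0, among transducers 4 and 9, and among transcription targets 4 and 5.

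Ihh, the related ligand best known from growth cartilage, had the smallest p of the 29. A_43_P15154 gave -5.11, -5.25, -5.52, -4.97 and -5.41 on the C arrays and -5.42, -6.17, -5.58, -5.83 and -5.75 on the T arrays. The groups overlapped by 1 array, with 4 of the 5 T arrays below every C array. The difference was -0.50 ± 0.15 (SE, exact permutation p = 0.0159 before adjustment, limma adjusted p = 0.9985), with -0.50 within slide 1 and -0.53 within slide 2. This was a dim probe, and with normexp background correction the difference was -0.195. Shh, the ligand of the neural tube and limb, cleared the background on 5 C and 3 T arrays and gave -0.34 ± 0.17 (exact permutation p = 0.103), or -0.029 with normexp. Scube1, of a family that helps release hedgehog ligands, gave 0.22 ± 0.11 (exact permutation p = 0.0952).

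Of the receptors, Gpc3, a glypican that competes for hedgehog ligands, gave 0.060 ± 0.094, Lrp2, a large endocytic receptor, 0.15 ± 0.25, and Cdon, a co-receptor, 0.037 ± 0.23 (SE), and Cdon was well above background on 4 of the T arrays. Cdon also turned negative with the slide as a block (-0.0097) and with array weights (-0.019). Of the transducers, Stk36, the relative of the fly kinase Fused, gave -0.22 ± 0.12 (SE), Btrc, a ubiquitin ligase subunit for Gli proteins, -0.096 ± 0.065, and Arrb2, an arrestin that binds Smo, 0.068 ± 0.061. The exact permutation p of these 6 genes ran from 0.119 to 0.881.

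Ccnd2, a cyclin of the G1 phase, gave 2.67, 2.53, 2.69, 2.72 and 2.52 on the C arrays and 2.55, 2.48, 2.36, 2.16 and 2.12 on the T arrays. Again 4 of the 5 T arrays lay below every C array, and the 3 lowest were those of slide 2. The difference was -0.29 ± 0.093 (SE, exact permutation p = 0.0238 before adjustment, limma adjusted p = 0.9985), with -0.12 within slide 1 and -0.40 within slide 2. Foxc2, a forkhead factor of mesenchyme, gave -3.88, -4.13, -3.83, -3.61 and -3.75 on the C arrays and -3.41, -3.77, -3.20, -3.53 and -3.62 on the T arrays, so 3 T arrays lay above every C array. Its difference was 0.33 ± 0.12 (SE, exact permutation p = 0.0397 before adjustment, limma adjusted p = 0.9985), with 0.35 within slide 1 and 0.23 within slide 2. Igfbp6, a binding protein of insulin-like growth factors, gave 0.063 ± 0.074.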

How the data were processed

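Per the labels' protocols, column-purified, DNase-treated RNA (100 ng) was amplified and labelled with Cy3. Spot intensities in the deposited scanner output come from Agilent Feature Extraction 10.7.3.1 per the file headers (10.7 in the submitters' processing notes), background-subtracted and not scaled between arrays. A deposited table of the authors, in log2 units centred per probe with scaling between arrays not given in the sources used here, served as an alternative. Of 62976 spots on an array, 4259 controls were left out and flagged spots (494 to 745) were set missing; 0 were saturated. The log2 processed signal minus the array's 75th percentile was averaged over the spots of a probe, and probes well above background on at least 5 arrays entered a limma fit (limma 3.58.1, R 4.3.3; T minus C, two-sided, no covariate, threshold 0.05 after Benjamini-Hochberg adjustment). Correlations were computed in Python 3.11.15 and tested with 100000 permutations, two-sided. Single differences were also tested by exact permutation over all 252 splits. The limma fit and the permutation test of correlations were tried on simulated data, and the exact test was not.

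Probes were named through RefSeq transcripts of the GRCr8 gene table (17998 of 30367 matched). The headers of 5 arrays name the rn4 build; the coordinates printed come from GRCr8 alone. The members and lists were chosen with earlier results of these data known. Named genes are the 8 members, in each other pathway list the 3 with the smallest unadjusted p, and the 3 genes correlated most with each member. The brightest probe of a gene stood for it in counts. Alternatives covered background correction (normexp with an offset of 50 on the median spot signal), scaling, filter, flagged spots, variance model, array weights, slide, sire number, source of values and leaving out each array. The comparison of slides, the exact tests of single differences, the dimmer Dhh probe and the removal of array brightness were added after seeing the data.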

Additional observations from a re-analysis of the deposited data

How the results depend on the processing

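No probe passed the threshold for T against C under any setting run. With 5 arrays per group and 1 or 2 probes per gene, small changes of the members remain within the intervals. The dim probes of Gli2, Ihh, Shh and Cdon are limited by their signal. The unadjusted count of probes ran from 481 (normexp) to 1151 (without T replicate 1), against 869. The differences of Ptch1, Smo, the dimmer Dhh probe, Ihh, Scube1, Stk36, Btrc, Arrb2, Ccnd2, Foxc2 and Igfbp6 kept their direction in all settings. The dimmer Gli2 probe and Shh did so where they had a value, but met the filter through their 5 C arrays, so no conclusion is drawn. They and Cdon lack a value with detection required on all 10 arrays, as does the Gli2 probe in the authors' values. Sizes were less stable. Leaving out 1 array moved these by over 1.5 times: Ptch1 (-0.16 without T replicate 3 to -0.040 without T replicate 4; also C replicate 5 and T replicate 1), the dimmer Gli2 probe (-0.12 without C replicate 5), Shh (-0.20 without T replicate 3), Stk36 (-0.12 without T replicate 5), Btrc (-0.058 without C replicate 1), Arrb2 (0.041 without T replicate 4) and Igfbp6 (0.022 without T replicate 5; also C replicates 3 and 5).

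Member genes higher in T numbered 3 with the authors' values, normexp, quantile normalization and within slide 1, and 0 to 3 when each array was left out. Dhh (A_44_P639832) turned to 0.0045 with the authors' values and with quantile normalization, 0.0027 with the replicate block, 0.0069 with the slide as a block and 0.10 within slide 1, and ran from -0.035 to 0.021 without each array. Gli1 turned to 0.0015 with the authors' values, 0.022 with normexp and 0.0024 with quantile normalization (-0.054 to 0.047 without each array), and Gli3 to 0.019 with normexp and 0.10 within slide 1 (-0.088 to 0.0070). Gli2 (A_44_P868890) was 0.034 within slide 2 and ran from -0.13 without T replicate 4 to -0.030 without T replicate 1 or 2. Sufu was -0.011 with the replicate block, -0.0079 with the slide block and -0.12 within slide 2 (-0.050 to 0.070). With the replicate block Gpc3 was -0.056 (-0.0021 to 0.11 without each array), Lrp2 -0.042 (-0.0045 to 0.30) and Cdon -0.21; Cdon was -0.019 with array weights, -0.0097 with the slide block and -0.047 within slide 2 (-0.15 to 0.19). The sign turned without C replicates 2 and 5 and T replicates 4 and 5 for Dhh, C replicates 4 and 5 and T replicates 1 and 2 for Gli1, C replicate 4 for Gli3, C replicates 2 and 3 and T replicate 3 for Sufu, T replicate 4 for Gpc3, C replicate 2 for Lrp2, and C replicates 3 and 5 and T replicate 5 for Cdon, each left out alone. The correlation of Dhh and Ptch1 was 0.0645 with slide means removed and 0.246 with the dimmer Dhh probe. With normexp 2 member pairs passed, and Dhh and Gli2 reached r = -0.822. The slide difference of Gli1 was 0.26 with no filter on dim probes, where 30367 probes enter the adjustment and its limma adjusted p was 0.0598, and 0.23 to 0.30 without each array. For the other changes the cause was not tested.

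The replicate block used the number in the sire code. For number 2, split over slides, array deviations from group means correlated at -0.512. For 4 and 6, each on 1 slide, r was 0.282 and 0.194, so pairing and slide cannot be told apart. Others were on 1 array each, so the blocked difference rests on 2, 4 and 6. With the block 0 probes passed, and 697 had an unadjusted limma p under 0.05. The block also moved Gli1 to -0.18, the brighter Gli2 probe to -0.16, the dimmer Dhh probe to -0.075, Ccnd2 to -0.13, Stk36 to -0.066, Arrb2 to 0.036 and Igfbp6 to 0.018, all in the direction they had before.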
